A study of Mus musculus with 2 samples.

Results

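The miR-181 family was followed in small RNA sequencing of exosomes from the mouse colorectal carcinoma line CT26. The members were 6 mature miRNAs, mmu-miR-181a-5p, mmu-miR-181b-5p, mmu-miR-181c-5p, mmu-miR-181d-5p, mmu-miR-181a-1-3p and mmu-miR-181a-2-3p (mmu for mouse, left out from here on), chosen by name out of the 1915 mature miRNAs listed for each library. One library came from exosomes of parental CT26 cells and the other from exosomes of CT26 spheres, here called sphere-derived cancer stem cells (SDCSCs). This identity follows the sample descriptions. The title of the parental sample, CT26-WT-ex-del, leaves a doubt, because ex-del elsewhere in the study stands for medium from which exosomes were removed. The title could also stand for the exosome-depleted medium used for collection. If it is meant in the first sense, the values called parental exosomes below are not exosome values. The files do not settle which is right. CT26 is an established line of Balb/C origin. Parental cells grew in complete DMEM with fetal bovine serum, which was replaced by complete DMEM with exosome-depleted fetal bovine serum for collection. Spheres were expanded for 2 weeks in serum-free DMEM/F12 with N2 supplements, 10 ng/ml EGF and 10 ng/ml bFGF. The medium, serum included, therefore differed together with the cell state, and these cannot be told apart. With 1 library per condition, none of the values below has a replicate check.

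miRNAs are short RNAs cut from hairpin precursors, and each hairpin can give a 5p and a 3p product from its arms. They guide repression of messenger RNAs mainly through the seed, bases 2 to 8 from the 5′ end. The miR-181 family is widely conserved in vertebrates and best known in developing lymphocytes, where miR-181a tunes the sensitivity of the T-cell receptor. It has also been linked to stem-like cells of liver cancer.

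The 4 mature 5p sequences of the family are shown because they share one seed, given in capitals, and differ outside it. They are taken from RefSeq on build GRCm38.p6.
miR-181a-5p: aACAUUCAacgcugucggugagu
miR-181b-5p: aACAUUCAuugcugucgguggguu
miR-181c-5p: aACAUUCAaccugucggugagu
miR-181d-5p: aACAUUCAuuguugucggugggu
Counted from 1 at the 5′ end, miR-181b-5p differs from miR-181a-5p by A9U, C10U and A21G over the 23 bases compared. miR-181d-5p differs from miR-181b-5p by C12U alone over 23 bases. The sequence of miR-181c-5p equals that of miR-181a-5p with 1 base deleted, at position 11. Among 1679 mature mouse miRNAs in the RefSeq table, these 4 are the ones with this seed. Since 1 base separates some members, reads can be shared between them. The study's methods name the ncPRO-seq framework and a normalization by reads that features share, to handle reads mapping to several places. The deposited values are nevertheless whole multiples of 1 read, with no fractions of a read among them. How reads were assigned between members is not given in the sources used here, and the values of single members are uncertain to that extent.

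The family is encoded by 3 pairs of neighbouring precursors. Mir181a-1 and Mir181b-1 lie on the plus strand of chromosome 1 (chr1:137966455-137966541 and chr1:137966639-137966718), with 97 bases between them. Both sit in an intron of Gm4258 and overlap an exon of A430106G13Rik on the same strand. Mir181a-2 and Mir181b-2 lie on the plus strand of chromosome 2 (chr2:38852735-38852810 and chr2:38853830-38853918), 1019 bases apart, in an intron of Nr6a1 on the opposite strand. Mir181c (chr8:84178873-84178961) and Mir181d (chr8:84178716-84178787) lie on the minus strand of chromosome 8, 85 bases apart, in an intron of Nanos3. The 5p products of miR-181a and miR-181b are the same from chromosomes 1 and 2, so their reads cannot be assigned to a cluster. The 3p products of miR-181a can, because they differ by U5C and U16C, counted from the 5′ end of miR-181a-1-3p. From miR-181c-3p of chromosome 8, miR-181a-1-3p also differs by only 2 bases, U16G and U19G. The miR-181a 3p products are shown with the seed in capitals.
miR-181a-1-3p: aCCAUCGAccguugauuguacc
miR-181a-2-3p: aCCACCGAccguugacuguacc
The chromosome 8 pair is marked by miR-181c-5p and miR-181d-5p themselves.

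The libraries were shallow. With the highest entry taken for each miRNA, the parental library held 32162 reads and the SDCSC library 3964, and all shares below are of these totals. A count of 3 reads, set as the smallest the depth can show, is 0.00933% of miRNA reads in parental and 0.0757% in SDCSC exosomes. Intervals of shares are 95% Wilson intervals, those of ratios are exact 95% intervals, and both cover counting error only, as amplified reads are not independent molecules. The labelled tissue was weakly marked: of 8 miRNAs of colon epithelium, 3 had a read in parental and 2 in SDCSC exosomes, with 55 and 2 reads in all. Of the 55 parental reads, 48 were miR-192-5p, and the SDCSC reads were 1 each of miR-200b-3p and miR-429-3p, which had 0 parental reads, while miR-141-3p, miR-200a-3p and miR-200c-3p were at 0 in both. Of 5 miRNAs of mesenchyme and smooth muscle, 5 had a read in the parental and 4 in the SDCSC library, at 4.17% and 5.58% of miRNA reads. Of 5 miRNAs typical of white blood cells, 5 and 2 had a read, at 0.815% and 0.0757%. Red cell and serum miRNAs, led by miR-486a-5p and miR-486b-5p with 856 and 853 reads, took 5.60% of parental reads and had 0 SDCSC reads. Whether the near-equal counts of these names are the same reads listed under both was not tested. The 5.60% may therefore count reads more than once. The part of white blood cell miRNAs in the results was not tested.

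As a whole, the miR-181 family took similar shares of both exosome libraries, with a difference inside counting error. Its 4 5p miRNAs were counted with 500 reads in parental exosomes, or 1.55% of miRNA reads (interval 1.43 to 1.70%). In SDCSC exosomes they were counted with 61 reads, or 1.54% (1.20 to 1.97%). The log2 ratio of SDCSC to parental shares was -0.01, with an interval from -0.42 to 0.37. With the entries of each miRNA at its precursors summed in place of the highest, the family share was 2.58% in parental and 2.59% in SDCSC exosomes, so the level depends on this choice. The interval of the ratio leaves room for a change of the family total of up to that size in either direction, which could not be seen at this depth. When the red cell and serum miRNAs, which moved between the libraries, were left out of the totals, the log2 ratio was -0.10. The reads left out include those of both miR-486a-5p and miR-486b-5p.

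The major member, miR-181a-5p, carried most of these reads in both libraries. It was listed at 10733 RPM in parental exosomes, which corresponds to 393 reads and 1.22% of the total (1.11 to 1.35%). In SDCSC exosomes it was listed at 11760 RPM, from 54 reads and 1.36% (1.05 to 1.77%). The intervals of the shares overlap, and the log2 ratio was 0.16 (-0.28 to 0.57). The reads were set against each library's total by Fisher's exact test (two-sided), which gave p = 0.446 and an adjusted p of 1.0, with the Benjamini-Hochberg method applied to all 336 detected miRNAs. This test compares the reads of the libraries and not the conditions. Among all miRNAs, miR-181a-5p ranked 20 in parental and 13 in SDCSC exosomes by reads.

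Its close relative miR-181b-5p was about an order of magnitude less abundant. It had 54 reads in parental exosomes (0.168%, 0.129 to 0.219%) and 6 reads in SDCSC exosomes (0.151%, 0.0694 to 0.330%). The log2 ratio was -0.15 with an interval from -1.66 to 1.07 (Fisher's exact test, adjusted p = 1.0). Per read of miR-181b-5p, parental exosomes held 7.28 reads of miR-181a-5p (5.47 to 9.86) and SDCSC exosomes 9.0 (3.88 to 25.6), and these intervals overlap too.

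The 2 5p miRNAs of chromosome 8 were counted with 1 read in all in SDCSC exosomes, where few reads were to be counted in any case. miR-181c-5p had 30 parental reads (0.0933%, 0.0653 to 0.133%) and 1 SDCSC read (0.0252%, 0.00445 to 0.143%). Its log2 ratio was -1.89, but the interval from -7.24 to 0.70 includes no change (Fisher's exact test, p = 0.249, adjusted p = 0.752). miR-181d-5p had 23 parental reads (0.0715%, 0.0477 to 0.107%) and 0 of 3964 SDCSC reads, which allows a share of up to 0.0757% by the limit of 3 reads and up to 0.0968% by the Wilson interval. Since both are above the parental share, no fold is given for miR-181d-5p (Fisher's exact test, p = 0.169, adjusted p = 0.610). In parental exosomes the order of levels was miR-181a-5p, miR-181b-5p, miR-181c-5p and miR-181d-5p. The interval of the first stood clear of the others, whereas those of miR-181b-5p and miR-181c-5p overlapped, as did those of miR-181c-5p and miR-181d-5p.

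**Figure D1:**
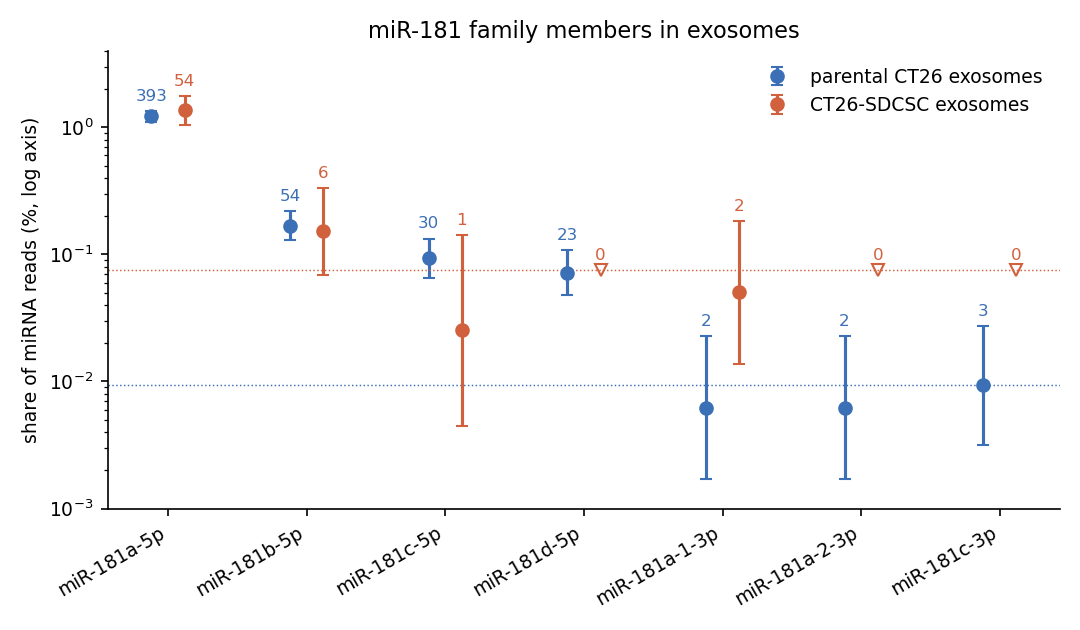
Share of miRNA reads (%, log axis) of each family miRNA with a read, in parental (blue) and CT26-SDCSC (orange) exosomes, 1 library each. Points are shares with 95% Wilson intervals, numbers are reads, open triangles mark 0 reads drawn at the limit of 3 reads, and dotted lines mark that limit in each library. The miR-181a-5p points (393 and 54 reads) lie side by side, and the miR-181c-5p interval in SDCSC exosomes spans the parental value.

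Of the 3p products, few reads were seen. miR-181a-1-3p, from chromosome 1, was read 2 times in each library. miR-181a-2-3p, from chromosome 2, was read 2 times in the parental library and 0 times in the other. All of these counts are under the limit of 3 reads in their library, so neither gives a fold, and the use of the chromosome 1 and 2 clusters could not be compared. Fisher's exact test gave adjusted p = 0.307 for miR-181a-1-3p and 1.0 for miR-181a-2-3p. Of the 4 other 3p products in the tables, miR-181c-3p had 3 parental and 0 SDCSC reads, while miR-181b-1-3p, miR-181b-2-3p and miR-181d-3p had 0 in both. The 3p products made up 1.01% of miR-181a reads in parental exosomes (0.393 to 2.56%, 4 of 397 reads) and 3.57% in SDCSC exosomes (0.985 to 12.1%, 2 of 56 reads). The 5p arm was thus the major product of miR-181a in both. For comparison, over 57 precursors with at least 50 parental reads on both arms together, the minor arm had a median of 0.974% of the reads.

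A miRNA was called where its shares lay 1.5-fold or more apart and the adjusted p of Fisher's exact test was below 0.05. By this rule 0 of the 6 members were higher and 0 were lower in SDCSC exosomes. Over the 336 miRNAs with any read, 4.76% were higher and 9.23% lower by this rule. At an unadjusted p under 0.05 the members again counted 0, against 19.3% of all miRNAs. With 0.5 reads added to both libraries where one had 0, the median log2 ratio was 0.00 over the 6 members and 0.21 over all 336 miRNAs. These medians depend on low counts and the reads added. The members include miR-181a-1-3p, miR-181a-2-3p and miR-181d-5p, for which no fold is given. The 0.21 is the ratio that 3 parental and 0 SDCSC reads receive, as for miR-181c-3p. When only the 68 miRNAs counted 50 times or more in total were kept, the median was -0.81. Of the members among these, miR-181a-5p (0.16) and miR-181b-5p (-0.15) both lay above it.

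**Figure D2:**
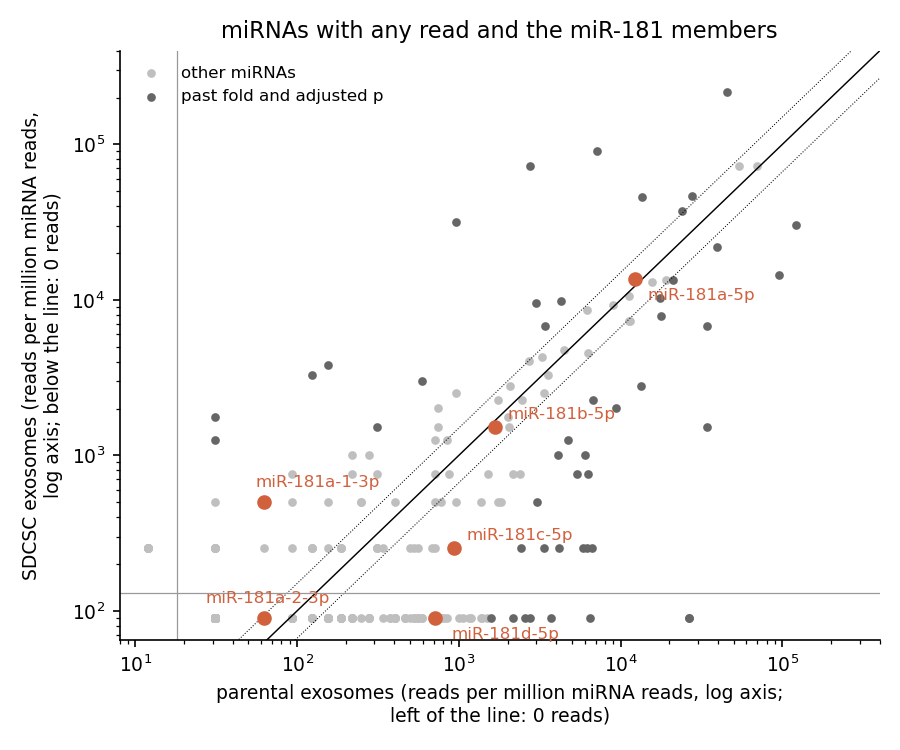
Reads per 1000000 miRNA reads of each miRNA with any read in parental (x) and SDCSC (y) exosomes, both on log axes, with miRNAs at 0 reads drawn beyond the thin lines. The solid line marks equal shares, dotted lines 1.5-fold, dark grey points miRNAs past the fold and an adjusted p under 0.05, and orange points the 6 family members. miR-181a-5p and miR-181b-5p sit near the line of equal shares, and miR-181d-5p sits in the strip of miRNAs without an SDCSC read.

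How far these counts could have moved before passing the rule was worked out for the 5p miRNAs, from the largest unadjusted p that still passed, 0.00547. At the parental share, 48.4 reads of miR-181a-5p were to be expected in the SDCSC library. It would have been called lower at 28 reads or fewer and higher at 73 or more. For miR-181b-5p, 6.66 reads were to be expected, and it would have been called lower at 0 reads and higher at 16. For miR-181c-5p and miR-181d-5p, with 3.70 and 2.83 reads expected, even 0 reads would not have passed, as the test then gives p = 0.0708 and p = 0.169 (Fisher's exact test). A miRNA without any SDCSC read needed at least 49 parental reads to be called lower. The complete loss of either chromosome 8 miRNA was therefore not detectable on its own.

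**Figure D3:**
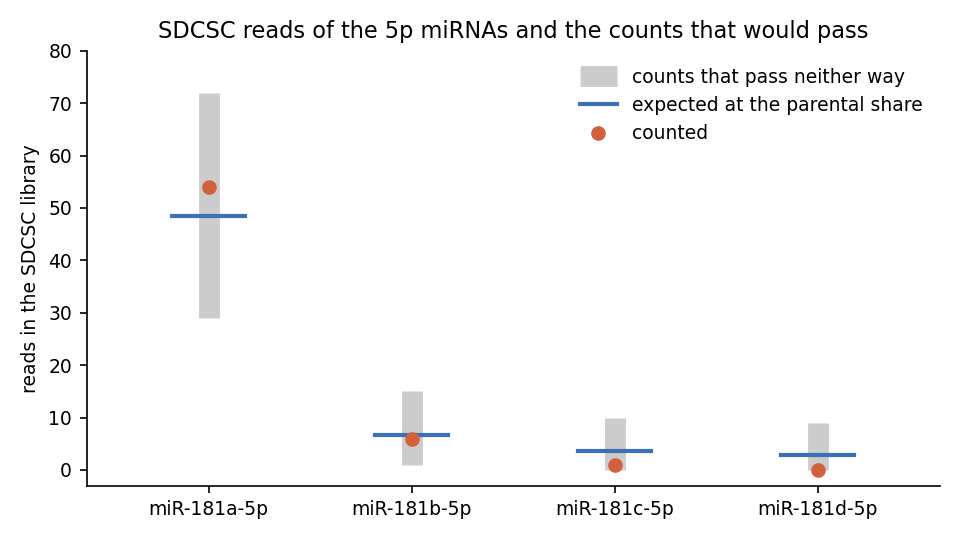
Reads in the SDCSC library of the 4 5p miRNAs (orange points), the reads expected at the parental share (blue lines) and the counts that would not pass the rule in either direction (grey bars). All 4 counts fall within the grey range, which reaches down to 0 reads for miR-181c-5p and miR-181d-5p.

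Within the family, the chromosome 8 miRNAs were counted with a smaller part of the 5p reads in SDCSC exosomes, but on 1 read there. miR-181c-5p and miR-181d-5p together made up 53 of 500 5p reads in parental exosomes, or 10.6% (8.20 to 13.6%). In SDCSC exosomes they made up 1 of 61, or 1.64% (0.290 to 8.72%). With summed entries, which count miR-181a-5p and miR-181b-5p at both precursors, these shares were 5.61% and 0.840%. With the highest entries, the odds ratio of their share, SDCSC over parental, was 0.141, with a conditional interval from 0.00344 to 0.853. Set against all miRNA reads, the sum of both had a log2 ratio of -2.71 (-8.04 to -0.17). The upper bound is close to 0, and it reached 0.00 once the totals were taken without the most abundant miRNA of each library. No p is given for these sums, since the members were picked with results of these data known. The sum of both was not a planned result, so its intervals are no test of a difference. The difference also rests on 1 SDCSC read, which is under the limit of 3 reads.

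Such low counts were common among miRNAs of similar parental abundance. Of 28 other miRNAs with 20 to 40 parental reads, 13 had 0 and 4 had 1 SDCSC read, which makes 60.7% with at most 1 read, and the median was 1 read. That median lies under the 2.83 and 3.70 SDCSC reads expected at the parental share from 23 and 30 parental reads. Most of these miRNAs thus had a lower share in SDCSC exosomes as well, and the part of depth in the low counts was not tested. The window was set after the counts of miR-181c-5p and miR-181d-5p had been seen.

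For the leading member, the interval of the change in share included no change. miR-181a-5p took 78.6% of the family's 5p reads in parental exosomes (74.8 to 82.0%) and 88.5% in SDCSC exosomes (78.2 to 94.3%). The odds ratio of its share was 2.10, with an interval from 0.916 to 5.62. The share of miR-181b-5p was 10.8% and 9.84% (odds ratio 0.901, 0.303 to 2.23).

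**Figure D4:**
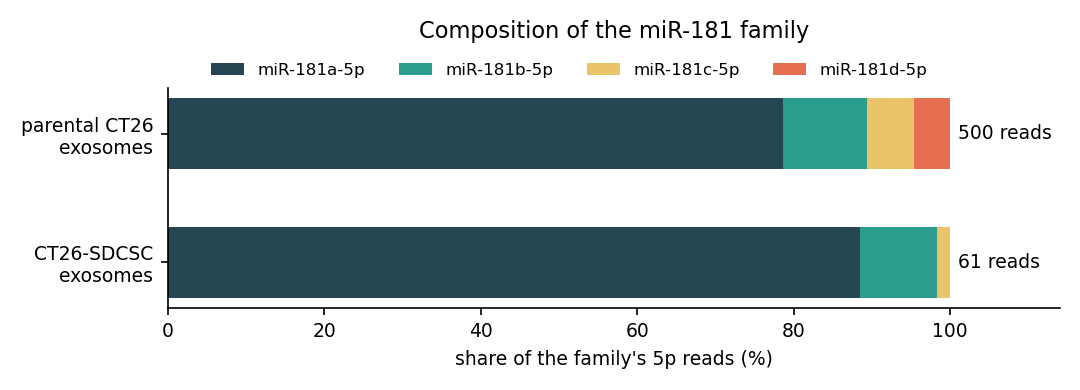
Share (%) of the family's 5p reads taken by each miRNA in parental (500 reads) and CT26-SDCSC (61 reads) exosomes. miR-181a-5p takes 78.6% and 88.5%, and miR-181c-5p with miR-181d-5p takes 10.6% and 1.64%.

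The entries at separate precursors gave a further detail. miR-181a-5p was listed with the same value at both of its precursors in each library, 393 reads in the parental and 54 in the SDCSC library. The entries of miR-181b-5p differed, with 51 and 54 reads in parental and 4 and 6 in SDCSC exosomes, and carry no precursor name. The surroundings of the mature sequences differ between these pairs, as the following stretches show, with the mature miRNA in capitals and 3 bases of the precursor on each side.
Mir181a-1: gugAACAUUCAACGCUGUCGGUGAGUuug
Mir181a-2: uggAACAUUCAACGCUGUCGGUGAGUuug
Mir181b-1: aucAACAUUCAUUGCUGUCGGUGGGUUgaa
Mir181b-2: cucAACAUUCAUUGCUGUCGGUGGGUUuga
After the mature miR-181a-5p, the first 4 bases are identical in both precursors, and after miR-181b-5p they differ from the first base on. What made the entries unequal was not tested. Among all miRNAs listed at several precursors and with reads, entries were unequal for 11 of 29 in parental and 7 of 14 in SDCSC exosomes.

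Compared with other miRNAs, miR-181a-5p had its closest match in level over both libraries in miR-16-5p, followed by miR-125b-5p and miR-27b-3p. Likeness was measured as distance between log2 reads per 1000000 over the 2 libraries, among 66 miRNAs outside the family with at least 50 reads in all. miR-16-5p was counted with 502 parental and 52 SDCSC reads, a log2 ratio of -0.25 at a distance of 0.357. miR-125b-5p had 360 and 42 reads, a log2 ratio of -0.08 at a distance of 0.380. For miR-27b-3p the counts were 610 and 53, the log2 ratio -0.50 and the distance 0.634. Fisher's exact test gave these adjusted p = 0.752, 1.0 and 0.0776 in that order.

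When miRNAs were grouped by shared seed, the miR-181 group ranked 19 of 269 groups by parental reads and 11 of 88 by SDCSC reads. Within the interval of its share, the rank stayed at 19 in parental exosomes and ran from 11 to 16 in SDCSC exosomes. Sequences were found for 294 of the 336 miRNAs with a read, and each of the others stood as a group of its own. The miRNAs with a sequence held 83.3% of parental and 93.7% of SDCSC reads. Groups can therefore lack members, and 10 miRNAs with at least 100 parental reads had no sequence, among them miR-486a-5p (856 and 0 reads) and miR-30d-5p (430 and 11). There were 16 groups with at least 100 parental reads and more than 1 member read, with members counted by name. Their log2 ratios of SDCSC to parental shares ran from -1.75 to 3.18 with a median of -0.28. The miR-181 family, at -0.01, was the nearest to 0 of these 16, but with totals that leave out the most abundant miRNA it was at 0.15 and the group led by miR-27b-3p, at 0.02, was nearest. Its interval, like those of the groups led by miR-99b-5p (-0.23 to 0.05) and miR-27b-3p (-0.50 to 0.19), includes 0. The same miRNA led in both libraries in 11 of the 16 groups, with a tie in the SDCSC library counted for miR-199a-3p. Its group consists of miR-199a-3p and miR-199b-3p, with 365 and 364 parental reads and 29 SDCSC reads each. Whether these are the same reads listed under both names was not tested, so this group may hold a single miRNA. The 11 leaders include miR-181a-5p in its family and miR-27b-3p, at 84.7% and 66.3% of its group's reads.

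**Figure D5:**
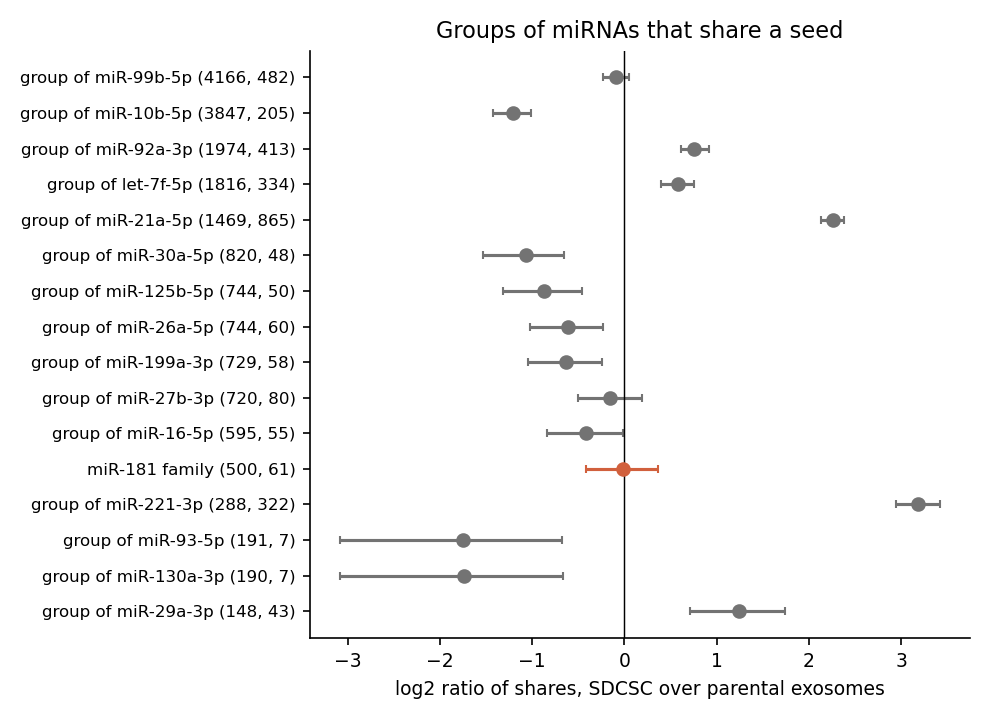
Log2 ratio of the summed share of miRNAs with one seed, SDCSC over parental exosomes. The 16 groups have at least 100 parental reads and more than 1 member read, with members counted by name. Points are ratios with exact 95% intervals, and the numbers beside each name are parental and SDCSC reads. The miR-181 family (orange, 500 and 61 reads) lies at -0.01.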

How the data were processed

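Small RNA libraries (inserts of 18 to 40 nucleotides) of 1 parental and 1 SDCSC exosome preparation were analysed. The authors clipped adapters, discarded reads shorter than 18 nucleotides with Trimmomatic and deposited 1 RPM value per mature miRNA and precursor, scaled to all entries. Build mm10 is named in the submitters' processing notes, and the study's methods name ncPRO-seq with RepeatMasker and Rfam features. The miRBase release is not given in the sources used here.

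Reads were recovered by dividing by the smallest RPM above 0 (27.31 and 217.77), which gave 36615 and 4592 reads over all entries. Of values above 0, 100% were whole within 0.05 reads. The highest entry per name was used. A log-scale test needs replicates, so reads were compared by two-sided Fisher's exact tests with Benjamini-Hochberg adjustment over all 336 miRNAs with a read, or by exact binomial tests under other scalings. The count test on these recovered reads called 16 miRNAs higher and 31 lower by the 1.5-fold and adjusted p rule, with 0.5 reads added to both libraries where one had 0.

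The members and lists were chosen with earlier results of these data known. Named miRNAs are the members, the family's other 3p arms, the 3 nearest to miR-181a-5p among miRNAs with at least 50 reads, and miRNAs of the marker lists. The seed group leader miR-99b-5p, and miR-30d-5p and miR-199b-3p, were chosen after their values were seen. Alternatives were other scalings (edgeR for TMM factors), sums of entries, a filter, another fold and another pseudocount. Coordinates are from GENCODE M21 (GRCm38) and matched RefSeq. RefSeq sequences were used for 294 of 336 miRNAs with a read. Python 3.11.15 with numpy 2.4.6, scipy 1.17.1 and pandas 2.3.3 was used, with R 4.3.3 and edgeR 4.0.16 for the TMM factors.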

Additional observations from a re-analysis of the deposited data

How the results depend on the processing

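No paired analysis was possible because there was 1 library on each side. Outside of leaving out library scaling, 0 members were called higher or lower under every alternative run. The family's log2 ratio stayed between -0.10 and 0.15 over 6 alternatives, that of miR-181a-5p between 0.07 and 0.32 and that of miR-181c-5p between -1.97 and -0.93 over 7 each, with adjusted p of at least 0.502 and 0.742. The adjusted p of miR-181d-5p ran from 0.416 to 0.580. Without library scaling, although the depths differ 8.11-fold, the family was at -3.04, miR-181a-5p at -2.86, and 4 members were called lower, against 39.9% of all miRNAs. The ratio of miR-181b-5p changed sign near 0, to 0.02 with totals that leave out the most abundant miRNA and to 0.05 with 1 read added to both libraries.

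Sums of entries count miR-181a-5p and miR-181b-5p at both precursors. They gave a family share of 2.58% in parental and 2.59% in SDCSC exosomes, and seed group ranks of 15 and 9. The miR-181a-5p share of the family was then 83.3% in parental and 90.8% in SDCSC exosomes. That of miR-181c-5p and miR-181d-5p was 5.61% in parental and 0.840% in SDCSC exosomes. Totals without the most abundant miRNA put the family share at 1.77% in parental and 1.97% in SDCSC exosomes. Ranking only miRNAs with a sequence, an alternative chosen after seeing the data, gave ranks of 15 and 10. Alternatives for the sum of miR-181c-5p and miR-181d-5p were also chosen then. The 3964 SDCSC reads limit every result, and most of all those for members other than miR-181a-5p.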
